A study of Homo sapiens with 6 samples.

Results

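Cytosolic ribosomal protein genes encode the protein components of the ribosome that works in the cytoplasm. They were taken by name from the deposited gene table: protein coding genes called RPSA, RPLP0, RPLP1, RPLP2, or RPL or RPS followed by a number and, where present, A or X. This rule found 77 of 58735 genes, 46 of the large and 31 of the small subunit, without the like-named paralogs, the ribosomal S6 kinases and the Y-linked copies. The rule uses names alone, and all 77 genes passed the filter on low counts.

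The data are RNA-seq counts from T84 cells, a colorectal cancer line of human origin, grown in serum-containing medium. The sample titles place 3 libraries under a control short hairpin RNA (shControl, genotype WT) and 3 under a hairpin against ACSL4 (shACSL4, genotype given as a knockdown), and both groups share the cell line, the medium and removal of ribosomal RNA from total RNA. The titles name hairpins although the series' own text calls the model a knockout. The sources used here do not say which hairpins were used, how many, or whether the libraries came from separate cultures or clones, so p-values reflect only sample-to-sample spread, possibly technical. ACSL4, which encodes an enzyme that activates polyunsaturated fatty acids, had 75.5, 72.2 and 72.0 CPM (read counts relative to the scaled library size) under shControl, against 10.3, 9.12 and 11.1 CPM under shACSL4 (log2 fold change -2.85, SE 0.10, adjusted p = 3.57e-12 in edgeR's quasi-likelihood test). Here and below, values in threes follow replicates 1, 2 and 3.

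Total counts ranged from 14740383 to 17620630 per library. Of 10 colonic epithelial markers, all were measured, with EPCAM at 1468 ± 115 and KRT8 at 2128 ± 321 CPM in shControl (SD, n = 3). At an adjusted p under 0.05, 6 rose in shACSL4 (60%) and EPCAM fell (10%), against 24% and 23.1% of all genes tested. Of 16 markers of other cell types, 11 stayed below the filter and the T cell marker CD3E had no count. Of the 5 tested, 2 fell and 0 rose at the same threshold. The highest of them was LYZ, at 20.8 ± 5.88 and 4.48 ± 0.853 CPM (SD, n = 3). A library in each group stood apart for the ribosomal protein genes. In shControl replicate 2, 75 of the 77 genes lay above their group mean of log2 CPM (median deviation 0.15), and in shACSL4 replicate 3, 72 did (0.18), against 7 to 10 genes in the other 4 libraries. In the same 2 libraries, other coding genes with a transcript of at most 1000 bases had median deviations of 0.08 and 0.13, where coding genes of all lengths were at 0.01 and -0.02. The part of RNA quality or library preparation in this was not tested.

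Ribosomal proteins are made in near equal numbers, since each ribosome holds a single copy of most of them, and a protein that finds no partner is degraded. Their genes are among the most highly transcribed of a growing cell. Their mRNAs begin with a terminal oligopyrimidine (TOP) tract, a C at the first transcribed base followed by a run of C and T, through which the kinase mTOR, acting in part by way of the RNA-binding protein LARP1, sets how strongly they are translated and how stable they are. The transcription factor MYC is known to drive the synthesis of ribosomal proteins and of the factors that assemble them, and colorectal tumours commonly have high ribosome output.

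The tract that the family shares is seen at the annotated starts, given by RefSeq on GRCh38.p14. Of the 77 genes, 62 had an entry of 250 bases before to 50 bases after a start. A tract, counted as a C at a listed start followed by at least 4 bases that are C or T in the sense of the transcript, opened 46 of the 62 (74.2%) and 1404 of all 27305 genes with an entry (5.14%). Within 5 bases of the start it was found in 53 of the 62 (85.5%) and in 25.2% of all genes. On chromosome 19, whose ribosomal protein genes are described apart below, 7 of 9 with an entry had it at the start. The 12 windows below run from 15 bases before to 15 bases from the start on, 5′ to 3′, with the C and T run that opens the transcript in capitals. They are shown because the first 6 belong to genes that fell in shACSL4 and the last 6 to genes of chromosome 19 that were not called.
RPL38 (chr17:74203663-74203692, plus strand): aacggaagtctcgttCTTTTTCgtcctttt
RPL21 (chr13:27251543-27251572, plus strand): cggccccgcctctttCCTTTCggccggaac
RPS25 (chr11:119018329-119018358, minus strand): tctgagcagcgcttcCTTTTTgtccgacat
RPSA (chr3:39406705-39406734, plus strand): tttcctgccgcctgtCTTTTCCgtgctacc
RPL11 (chr1:23691791-23691820, plus strand): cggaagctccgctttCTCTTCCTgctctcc
RPS12 (chr6:132814554-132814583, plus strand): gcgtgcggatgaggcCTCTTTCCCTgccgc
RPL13A (chr19:49487593-49487622, plus strand): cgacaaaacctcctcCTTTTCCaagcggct
RPL18 (chr19:48619164-48619193, minus strand): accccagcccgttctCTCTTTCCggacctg
RPL28 (chr19:55385917-55385946, plus strand): tcgcccctcgccttcCTCTTTCCgtctcag
RPS9 (chr19:54200843-54200872, plus strand): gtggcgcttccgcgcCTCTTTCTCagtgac
RPS16 (chr19:39435935-39435964, minus strand): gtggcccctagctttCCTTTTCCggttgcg
RPS19 (chr19:41860240-41860269, plus strand): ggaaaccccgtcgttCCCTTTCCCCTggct

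The comparison of shACSL4 with shControl showed a shallow fall across most of the family. Of the 77 genes, 44 fell, 2 rose and 31 were not called (edgeR's quasi-likelihood test, adjusted p under 0.05 over the 15694 genes tested). Thus 57.1% of the family was called lower and 2.6% higher, where 23.1% of all genes tested were called lower and 24% higher. Of 3661 other coding genes off chromosome 19 with a mean of at least 1000 counts, 35.9% were lower and 19.2% higher (median -0.10). Of 222 such genes on chromosome 19, 12.2% were lower and 44.1% higher. The family had a median mean count of 6760 and was not matched in counts to any of these sets. Its median log2 fold change was -0.31, against 0.01 over all genes tested, and 62 of the 77 values lay below 0. The genes that fell had values from -0.84 to -0.26, and the standard error of a member was 0.10 at the median. In 40 genes all 3 shACSL4 libraries lay below all 3 shControl libraries and in 2 above them, where the same held for 26.8% and 28.3% of all genes tested (55.1% in either direction). In the authors' deposited table, 47 of the genes are lower and 2 higher at an adjusted p under 0.05.

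Both subunits took part. In the large subunit 28 of 46 genes fell and 1 rose (median -0.32), and in the small subunit 16 of 31 fell and 1 rose (median -0.26). Away from chromosome 19 the medians were -0.34 for both subunits, with 28 of 41 large and 16 of 24 small subunit genes lower. The number called depends on the scaling and on single libraries. With library size alone, which moves the median of all genes to 0.13 and the share of higher calls from 50.9% to 65.6%, 21 members were lower and 2 higher. Without shACSL4 replicate 1 or 2 the lower count was 26 and 22, and without both shControl replicate 2 and shACSL4 replicate 3 it was 49.

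**Figure D1:**
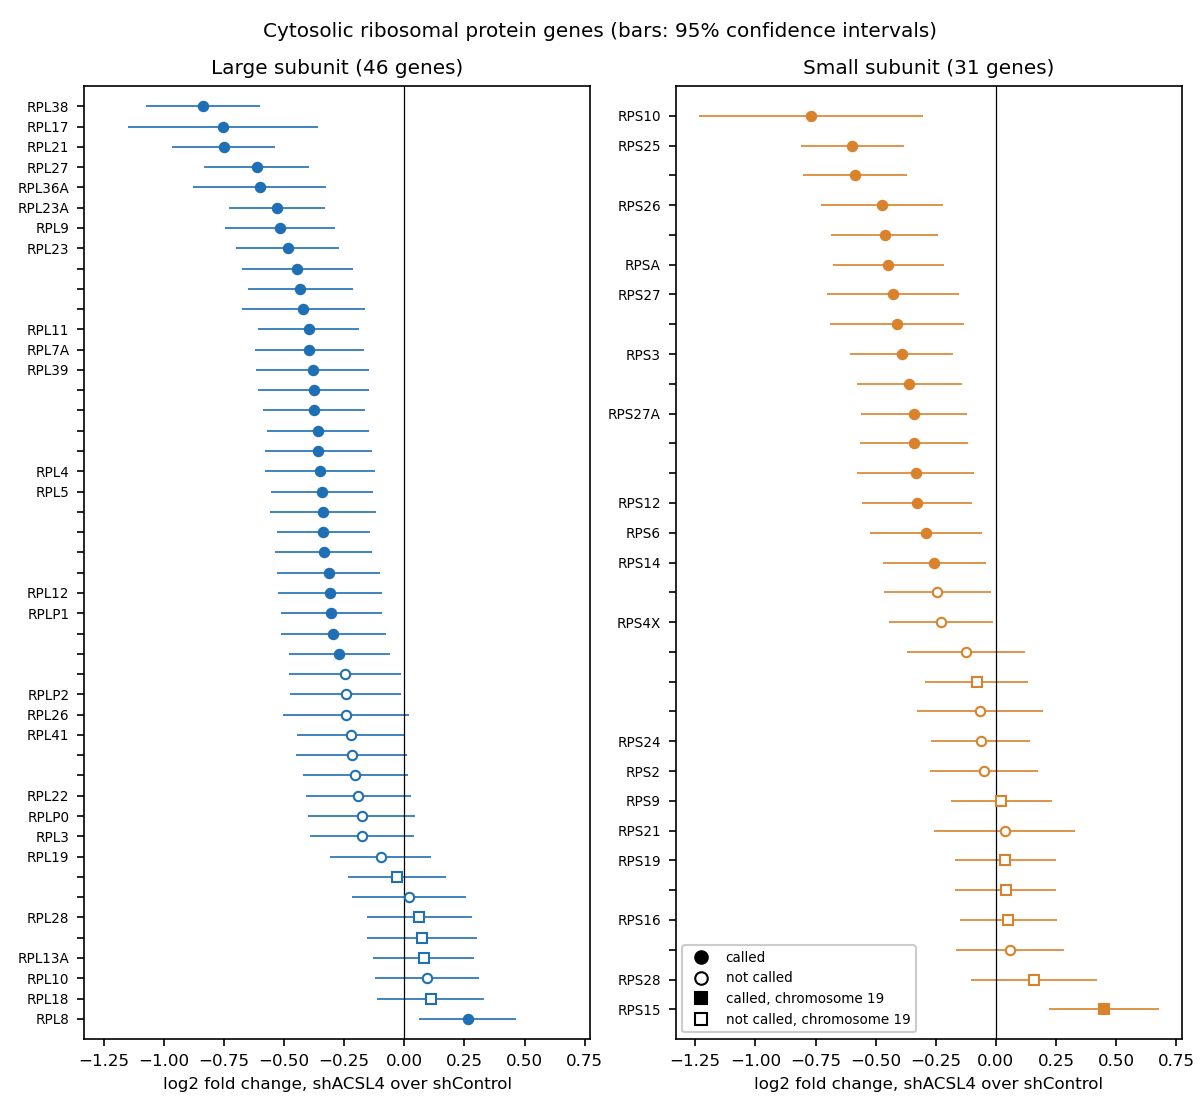
Log2 fold change of each of the 77 genes, shACSL4 over shControl, with 95% confidence intervals from edgeR's quasi-likelihood fit, for the large (left) and small (right) subunit. Genes described in the text are labelled, filled points were called at an adjusted p under 0.05 and squares mark chromosome 19: most points lie left of 0, from RPL38 at -0.84, while RPL8 and RPS15 are the filled points on the right.

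Summed over its 46 genes, the large subunit had 24422, 28288 and 23571 CPM under shControl, against 20352, 20834 and 23451 CPM under shACSL4. The small subunit summed to 15451, 18114 and 14888 CPM in shControl and 13044, 13280 and 15046 CPM in shACSL4. The large subunit sums of the groups did not overlap, but shACSL4 replicate 3 came close to shControl replicate 3, and in the small subunit it lay above that library. The group means were 25427 ± 2514 and 21546 ± 1667 CPM for the large and 16151 ± 1723 and 13790 ± 1094 CPM for the small subunit (SD, n = 3), so that 84.7% and 85.4% of the shControl level remained.

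The ratio between the subunits was nearly the same in all 6 libraries. Large over small was 1.58, 1.56 and 1.58 in shControl and 1.56, 1.57 and 1.56 in shACSL4, with means of 1.58 ± 0.0118 and 1.56 ± 0.00546 (SD, n = 3) and overlapping groups. As a share of all counts, without scaling, the 77 genes took 3.80%, 4.35% and 3.78% in shControl and 3.43%, 3.48% and 4.13% in shACSL4, which also overlapped. In bulk RNA, fewer cells with high expression and less of these mRNAs per cell cannot be told apart.

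**Figure D2:**
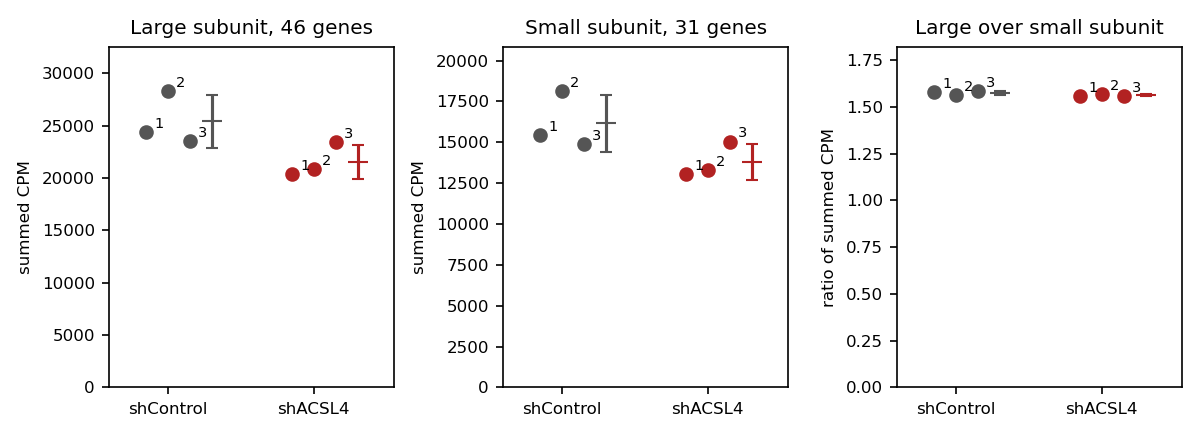
Summed CPM of the large and small subunit genes and their ratio in each library (points, numbered by replicate), with the mean and SD of each group beside them. shControl replicate 2 is the highest of its group and shACSL4 replicate 3 the highest of its own in both sums, while the ratio stays between 1.56 and 1.58 in all 6 libraries.

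In the large subunit, the deepest fall was in RPL38 (ENSG00000172809, GRCh38 chromosome 17, 74203582 to 74210655, plus strand), a surface protein known from mouse work to be needed for translating certain developmental mRNAs. It had 127, 159 and 124 CPM in shControl and 72.6, 68.6 and 88.1 CPM in shACSL4 (log2 fold change -0.84, SE 0.11, adjusted p = 1.3e-05). Every shACSL4 library lay well below the lowest shControl library. RPL21 (chromosome 13, 27251309 to 27256691, plus strand) went from 203, 246 and 215 CPM to 126, 119 and 149 CPM (-0.75, SE 0.10, adjusted p = 1.53e-05), again with no overlap. RPL27 (chromosome 17, 42998273 to 43002959, plus strand) went from 573, 652 and 571 CPM to 353, 371 and 450 CPM (-0.61, SE 0.10, adjusted p = 0.000133). These 3 genes stayed called lower in all 21 other settings tried. Over all settings, their smallest falls had log2 fold changes of -0.55 for RPL38, -0.63 for RPL21 and -0.39 for RPL27. The running median of neighbouring genes, described at RPL8 below, was -0.29 at RPL38 and -0.23 at RPL27, the same sign as their falls. At RPL21 it was 0.095.

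RPL17, whose protein lines the exit tunnel for the new polypeptide, and RPL36A were among the 6 largest falls but rest on few reads. RPL17 had 107, 113 and 117 counts under shControl, against 74, 75 and 57 counts (-0.75, SE 0.19, adjusted p = 0.00323). RPL36A had 258, 283 and 238 counts against 150, 206 and 173 counts (-0.60, SE 0.13, adjusted p = 0.00121). Both lie inside an annotated readthrough gene, as does RPS10 of the small subunit, and those 3 readthrough genes had 0 to 2 counts in any library. The sources used here do not say how shared reads were counted, and the levels of these 3 genes are uncertain.

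The ribosomal stalk, which recruits and activates the elongation factors, is built from RPLP0, RPLP1 and RPLP2 on a base that includes RPL12. RPLP1 had 872, 975 and 847 CPM in shControl and 678, 693 and 812 CPM in shACSL4 (-0.30, SE 0.10, adjusted p = 0.0197). RPL12 fell by 0.31 on the log2 scale (SE 0.10, adjusted p = 0.0205). Neither was called without shACSL4 replicate 1 (adjusted p = 0.105 for RPLP1 and 0.111 for RPL12) or replicate 2 (0.0949 and 0.058), nor RPL12 without shControl replicate 2 (0.0722); over 22 settings they were called in 19 and 16. The other two proteins of the stalk were not called: RPLP2 had 662, 749 and 665 CPM against 525, 539 and 689 CPM (-0.24, 95% interval -0.47 to -0.01, adjusted p = 0.0755). RPLP0 had 2269, 2632 and 2124 CPM against 1990, 2069 and 2151 CPM (-0.18, interval -0.40 to 0.04, adjusted p = 0.176). Their intervals include the sizes seen for RPLP1 and RPL12, so the 4 genes were not shown to differ from each other.

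RPL5 and RPL11 form a particle with the 5S ribosomal RNA that, when not built into ribosomes, binds and inhibits the p53 ligase MDM2. RPL5 had 544, 619 and 535 CPM in shControl and 414, 419 and 504 CPM in shACSL4 (-0.34, SE 0.10, adjusted p = 0.00972). RPL11 had 376, 446 and 360 CPM against 287, 284 and 327 CPM (-0.40, SE 0.10, adjusted p = 0.0035). Both fell without overlap of the groups, although RPL5 lost its call without shACSL4 replicate 1 or 2 (adjusted p = 0.062 and 0.0613). Over 22 settings RPL5 was called in 19 and RPL11 in 22. RPL4, which also reaches into the exit tunnel, went from 1593, 1949 and 1496 CPM to 1334, 1371 and 1247 CPM (-0.35, SE 0.11, adjusted p = 0.0141). It was called in 20 of 22 settings. RPL39, a very small protein at the same tunnel, went from 365, 399 and 319 CPM to 249, 256 and 327 CPM (-0.38, SE 0.11, adjusted p = 0.0099). In RPL39 the groups overlapped through shACSL4 replicate 3, and it was not called without shACSL4 replicate 1 (adjusted p = 0.0651) or 2 (0.0626), nor in 3 other settings of 22.

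Other large subunit proteins with known special roles were not called. RPL10, which completes the subunit late in assembly, had 780, 829 and 778 CPM in shControl and 764, 808 and 974 CPM in shACSL4 (0.09, interval -0.12 to 0.31, adjusted p = 0.478). RPL3, next to the peptidyl transferase centre, had 1041, 1223 and 953 CPM against 940, 944 and 965 CPM (-0.18, interval -0.39 to 0.04, adjusted p = 0.17). RPL22, which is dispensable for general translation and is lost in some cancers, had 108, 138 and 107 CPM against 103, 94.9 and 111 CPM (-0.19, interval -0.41 to 0.03, adjusted p = 0.14). In all 3 the groups overlapped. RPL41, which encodes the smallest ribosomal protein, was at -0.22 (adjusted p = 0.0949).

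RPL8, which binds near the peptidyl transferase centre, was the only large subunit gene that rose. It had 743, 805 and 665 CPM in shControl and 856, 893 and 907 CPM in shACSL4 (0.26, SE 0.10, adjusted p = 0.0318), with no overlap. The running median of the 51 nearest tested genes at RPL8, members left out, was 0.46. Relative to it RPL8 was at -0.20 (adjusted p = 0.103). The call was also lost in each fit without 1 library except that without shControl replicate 2 (adjusted p from 0.0591 to 0.163). Values relative to neighbours keep the standard error of the main fit, so their adjusted p-values leave out the uncertainty of the running median.

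In the small subunit, the deepest fall with many reads was in RPS25 (ENSG00000118181, chromosome 11, 119015712 to 119018691, minus strand), known for its part in initiation at internal ribosome entry sites. It had 349, 397 and 354 CPM in shControl and 221, 225 and 280 CPM in shACSL4 (-0.60, SE 0.10, adjusted p = 0.000144). RPS10, at the readthrough gene named above, had 69, 74 and 82 counts against 46, 48 and 42 counts (-0.77, SE 0.22, adjusted p = 0.0087). In both genes every shACSL4 library was lower than every shControl library.

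RPSA, which in addition to its place on the small subunit is known as a laminin receptor precursor, had 2151, 2585 and 1946 CPM in shControl and 1658, 1625 and 1619 CPM in shACSL4 (-0.45, SE 0.11, adjusted p = 0.00307). Its shACSL4 values were tightly grouped, and the running median of its neighbours on chromosome 3 was 0.39, opposite in sign. RPS3, at the mRNA entry channel, had 1210, 1408 and 1124 CPM against 934, 931 and 986 CPM (-0.39, SE 0.10, adjusted p = 0.00427). RPS26, at the mRNA exit site, fell by 0.47 on the log2 scale (SE 0.12, adjusted p = 0.00371). RPS6, whose protein is the classic substrate of the S6 kinases downstream of mTOR, had 277, 352 and 281 CPM against 215, 253 and 275 CPM (-0.29, SE 0.11, adjusted p = 0.0378). The groups of RPS6 came close without overlapping, and the gene was not called without shControl replicate 2 (adjusted p = 0.162) or without shACSL4 replicate 1 (0.208) or 2 (0.0821).

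RPS27A, made as a fusion with ubiquitin, had 576, 675 and 587 CPM in shControl and 447, 448 and 554 CPM in shACSL4 (-0.34, SE 0.10, adjusted p = 0.0126). RPS27 had 254, 269 and 229 CPM against 164, 156 and 239 CPM (-0.43, SE 0.13, adjusted p = 0.012), with shACSL4 replicate 3 inside the shControl range. Without shACSL4 replicate 1 or 2 neither was called (adjusted p = 0.0743 and 0.078 for RPS27A, 0.0697 and 0.0874 for RPS27), and over 22 settings they were called in 17 and 18. RPS14, the gene lost in the anaemia of chromosome 5q deletion, had 583, 644 and 573 CPM against 467, 466 and 574 CPM (-0.26, SE 0.10, adjusted p = 0.0458). It was the gene closest to the threshold, and 4 of the 6 fits that left out a library, namely shControl replicate 1 or 2 or shACSL4 replicate 1 or 2, did not call it (adjusted p from 0.0795 to 0.196). RPS4X, the X-linked form of its protein, had 1199, 1428 and 1124 CPM against 1066, 1038 and 1097 CPM. Its groups did not overlap, but it was not called (-0.23, interval -0.45 to -0.01, adjusted p = 0.0779).

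RPS15, which reaches towards the decoding site, was the only small subunit gene that rose. It lies on chromosome 19 (1438358 to 1440494, plus strand) and had 320, 357 and 322 CPM in shControl and 397, 426 and 540 CPM in shACSL4 (0.45, SE 0.11, adjusted p = 0.00274). All shACSL4 libraries lay above all shControl libraries. The running median of its neighbouring genes was 0.50, and relative to it RPS15 was at -0.056 (adjusted p = 0.705). RPS19, the gene most often mutated in Diamond-Blackfan anaemia, had 513, 573 and 505 CPM against 506, 515 and 615 CPM (0.04, interval -0.17 to 0.25, adjusted p = 0.77). RPS2 had 1496, 1792 and 1378 CPM against 1456, 1532 and 1524 CPM (-0.05, interval -0.27 to 0.18, adjusted p = 0.736).

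**Figure D3:**
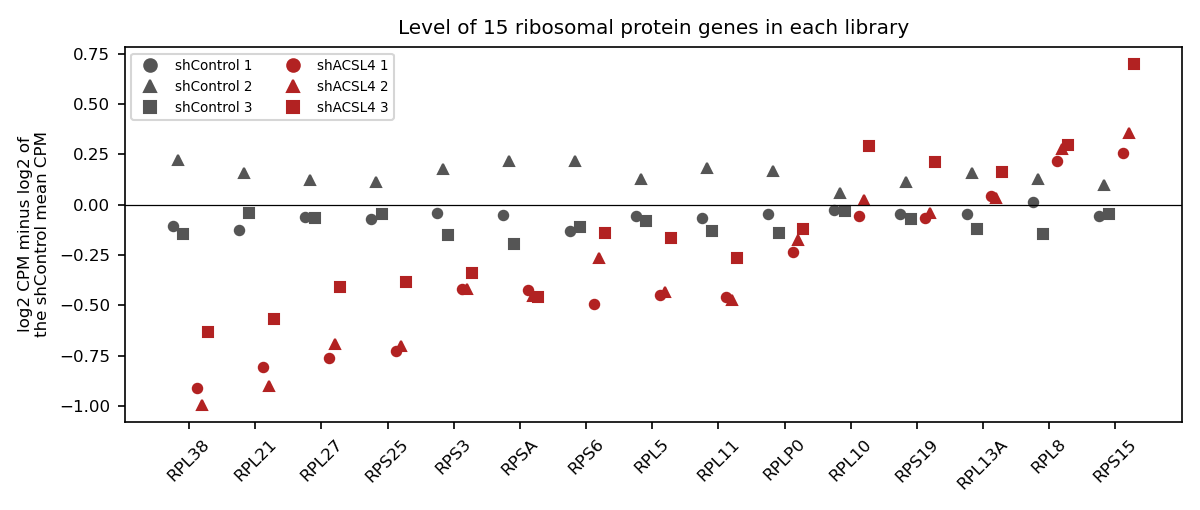
Log2 CPM of 15 genes in each library, set against the log2 of the shControl mean CPM of the gene, with shControl in grey and shACSL4 in red and a symbol for each replicate number. From RPL38 to RPL11 all red points lie below the grey ones, RPLP0 to RPL13A overlap, and RPL8 and RPS15 have all red points above; shControl replicate 2 and shACSL4 replicate 3 are the highest of their groups in most genes.

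The genes that did not fall were unevenly spread over the chromosomes, a pattern seen only after the values were known. Chromosome 19 holds 12 of the 77 genes. None of them fell, RPS15 rose, and their values ran from -0.08 to 0.45 with a median of 0.06. Of the 65 genes elsewhere, 44 fell and RPL8 rose, with a median of -0.34. RPL13A, known for silencing inflammatory mRNAs outside the ribosome, had 971, 1121 and 922 CPM in shControl and 1035, 1029 and 1124 CPM in shACSL4 (0.08, interval -0.13 to 0.29, adjusted p = 0.533). Summed, the 12 genes had 4997, 5676 and 4846 CPM in shControl and 5039, 5230 and 6035 CPM in shACSL4, with overlapping groups. The 65 others had 34875, 40726 and 33613 CPM against 28357, 28884 and 32461 CPM, without overlap, so that 82.1% of the mean remained.

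Other coding genes of chromosome 19 also lay higher than those elsewhere. Their median was 0.26 over 899 genes, with 42.3% called higher and 10.6% lower, against -0.01 over 11627 coding genes elsewhere, with 24.8% higher and 26.8% lower. The running median of neighbouring genes was 0.13 to 0.50 at the 12 members of chromosome 19. Relative to their neighbours, the 12 had a median of -0.16, with 2 of them lower and none higher, and the other 65 a median of -0.31, with 42 lower; 74 of the 77 values were then below 0. On chromosome 10, where other coding genes had a median of 0.29, RPS24 was at -0.06 (adjusted p = 0.618). On chromosome 20 (0.19) RPS21 was at 0.04 (adjusted p = 0.851). On chromosome 17, where the median of other coding genes was -0.17, RPL38, RPL27, RPL23A and RPL23 fell and RPL19 and RPL26 were not called. Across the 77 genes the fold change and the running median of neighbours had a Spearman correlation of 0.50, and 0.26 over the 65 genes off chromosome 19, as descriptions of genes that share the same libraries. Whether chromosome copy number differed between the groups was not tested.

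Base composition went with chromosome. The representative transcripts of the 12 genes had 53.8% to 61.6% G and C (median 59.2%), against a median of 48.7% elsewhere, and the fold change and GC content had a Spearman correlation of 0.55 over the 77 genes and 0.33 over the 65. The trend of all other genes with GC content reached 0.02 to 0.06 at the 12 genes. Relative to that trend their median was 0.02, against -0.34 for the 65 others.

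Short transcripts also lay lower among other coding genes. The median representative transcript of the 77 genes was 705 bases, with a range from 296 to 7686 bases (RPL37). Within the family, fold change and log2 transcript length had a Spearman correlation of 0.062, as a description. Whether the chosen transcripts are the main forms in these cells was not tested. Among other coding genes, the 850 with a transcript of at most 1000 bases had a median of -0.15, with 33.2% lower and 14.4% higher, against 0.06 for the 3923 longer than 4000 bases, with 23.1% lower and 30.8% higher. Relative to the trend with length, 33 ribosomal protein genes were lower and 2 higher. The share of lower calls was 57.1% in the family and 33.2% in the short genes. The 2 sets were not matched in counts, and the difference was not tested.

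Levels between genes were compared per length, by the authors' FPKM values. The family spanned from 1.58 FPKM for RPS10 to 889 FPKM for RPS12, with a median of 135 FPKM over all libraries. After RPS12, at 993 ± 121 FPKM in shControl and 784 ± 91.5 FPKM in shACSL4 (SD, n = 3), came RPS2 and RPL7A, with means of 627 and 565 FPKM. RPS2 and RPL7A did not differ in shControl beyond their spread, at 641 ± 91.8 and 645 ± 46.4 FPKM. In shACSL4 they were at 614 ± 18.5 and 486 ± 63.1 FPKM (SD, n = 3), RPL7A having fallen (-0.39, SE 0.11, adjusted p = 0.00616; 0.0509 without shACSL4 replicate 2). RPS12 fell by 0.33 on the log2 scale (SE 0.11, adjusted p = 0.02) but was called in only 16 of 22 settings, and not without shControl replicate 2 (0.0705) or shACSL4 replicate 1 (0.0957) or 2 (0.104). The lowest were RPS10, RPL17 and RPL36A. The gene lengths behind FPKM equal the union of all annotated exons in each of the 77 genes, so rare long transcript forms lower the value of a gene.

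Many processed copies of these mRNAs lie in the genome, and reads can be split between a gene and its copies. The table holds 1137 pseudogenes named after a member, of which 518 had at least 1 read. They took 0.199%, 0.229% and 0.199% of counts in shControl and 0.186%, 0.185% and 0.222% in shACSL4, high in the same 2 libraries as the genes. Of 88 that passed the filter, 23 were called lower (26.1%, near the 23.1% of all genes tested) and 1 higher (1.14%, against 24%), with a median of -0.33. For RPL9 the copies held 166% of the reads of the gene itself and for RPS28 191%, so these 2 genes are uncertain. The next largest shares were 64.8% for RPS10, 40.3% for RPL39, 26.6% for RPS2 and 25% for RPL10, whose levels are also less certain. RPL9P9 had 268, 374 and 303 CPM in shControl and 194, 202 and 236 CPM in shACSL4 (-0.58, SE 0.11, adjusted p = 0.000525), beside -0.52 for RPL9 (SE 0.11, adjusted p = 0.000935). RPS28P7 was at 0.01 (adjusted p = 0.943), beside 0.16 for RPS28 (adjusted p = 0.309). With the reads of all copies added to their gene, 45 members were lower and 2 higher.

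Some ribosomal proteins lie outside the naming rule. FAU (-0.22, adjusted p = 0.115), made as a fusion with a ubiquitin-like protein, was not called, nor was RACK1, a small subunit protein that links signalling to the ribosome, at 988 ± 106 and 963 ± 30.3 CPM (SD, n = 3; -0.04, adjusted p = 0.783). Of 9 paralogs of ribosomal proteins, 5 passed the filter. Of these, 2 fell (40%) and 0 rose, against 23.1% and 24% of all genes tested. The 2 were RPL36AL (-0.45, SE 0.12, adjusted p = 0.00473) and RPS27L, a p53 target (-0.41, SE 0.11, adjusted p = 0.0058). RPL22L1, RPL7L1 and RPL26L1 were not called (0.04, 0.07 and -0.24). RPL39L and RPL10L had at most 1 count in any library.

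Other genes whose mRNAs are known to begin with the same tract, among them elongation factors, also held many that fell. Of 17 listed, 16 were measured, 8 fell and 2 rose (median -0.26), or 50% and 12.5%, where 23.1% of all genes tested were lower and 24% higher. TPT1, a tumour-associated growth protein, went from 581 ± 75.7 to 389 ± 16 CPM (SD, n = 3; -0.58, SE 0.10, adjusted p = 0.000161) and the histone chaperone NAP1L1 from 511 ± 47 to 359 ± 6.72 CPM (-0.51, SE 0.09, adjusted p = 0.000225). The 2 rises were elongation factor genes. EEF2, on chromosome 19, went from 2222 ± 198 to 3038 ± 350 CPM (0.45, SE 0.11, adjusted p = 0.00337) and EEF1D, on chromosome 8, from 72.2 ± 7.44 to 116 ± 4.15 CPM (0.68, SE 0.09, adjusted p = 1.34e-05). The running median of neighbouring genes was 0.13 at EEF2 and 0.46 at EEF1D. EEF1G is listed at 0 in every library. Whether this reflects its expression or how reads were assigned to genes was not tested, so its level is uncertain.

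Genes that make ribosomal RNA and assemble ribosomes are set here beside the 23.1% lower and 24% higher of all genes tested. Of 20 genes of RNA polymerase I, its shared subunits and its factors, 8 rose (40%) and 2 fell (10%), with a median of 0.14. POLR1A, the largest subunit, rose by 0.64 (SE 0.11, adjusted p = 0.000105) and TAF1B by 0.80 (SE 0.14, adjusted p = 0.000195). TAF1D, of the same promoter factor as TAF1B, fell by 0.69 (SE 0.09, adjusted p = 7.64e-06). The running median of neighbouring genes was 0.54 at TAF1B, -0.073 at POLR1A and -0.033 at TAF1D. In ribosomal RNA modification and early processing, 4 of 30 rose and 4 fell (13.3% each, below the share of all genes; median 0.01), with UTP14A at 0.79 and NOP58 at 0.47 and UTP20 at -0.67 and UTP18 at -0.41. In large subunit assembly and export, 9 of 31 rose (29%) and 8 fell (25.8%), near the shares of all genes (median 0.01). Here BOP1, a factor that with PES1 and WDR12 matures the large subunit, went from 84.5 ± 9.9 to 141 ± 12.8 CPM (SD, n = 3; 0.74, SE 0.10, adjusted p = 1.32e-05) and the nucleolar GTPase GNL2 from 109 ± 11.3 to 59.6 ± 4.61 CPM (-0.87, SE 0.10, adjusted p = 1.68e-06). Of 12 measured chaperones and importins of ribosomal proteins, 3 rose and 3 fell (25% each, near those shares), with RRP12 at 0.57 and the importin TNPO1 at -0.47.

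Among 23 regulators of ribosomal protein synthesis, 8 rose (34.8%) and 3 fell (13%), against 24% and 23.1% of all genes tested (median 0.07). MXD4, a MAX partner that opposes MYC, went from 7.57 ± 1.09 to 21 ± 1.9 CPM (SD, n = 3; 1.47, SE 0.14, adjusted p = 3.04e-07) and DEPTOR, an inhibitor of mTOR, from 16.6 ± 1.32 to 39.7 ± 4 CPM (1.25, SE 0.11, adjusted p = 1.34e-07). RHEB, the small GTPase that activates mTOR, went from 75.3 ± 3.71 to 46.5 ± 0.181 CPM (-0.69, SE 0.08, adjusted p = 4.69e-06), and MDM2 fell by 0.32 (SE 0.09, adjusted p = 0.00671). MTOR itself rose by 0.35 (SE 0.11, adjusted p = 0.0127), and TSC1 and TSC2, which restrain RHEB, rose by 0.46 and 0.26. MYC, at 368 ± 14.9 and 344 ± 24.1 CPM (SD, n = 3), and LARP1, at 506 ± 45.4 and 476 ± 59.8 CPM, were not called (-0.10 and -0.09, adjusted p = 0.373 and 0.518).

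**Figure D4:**
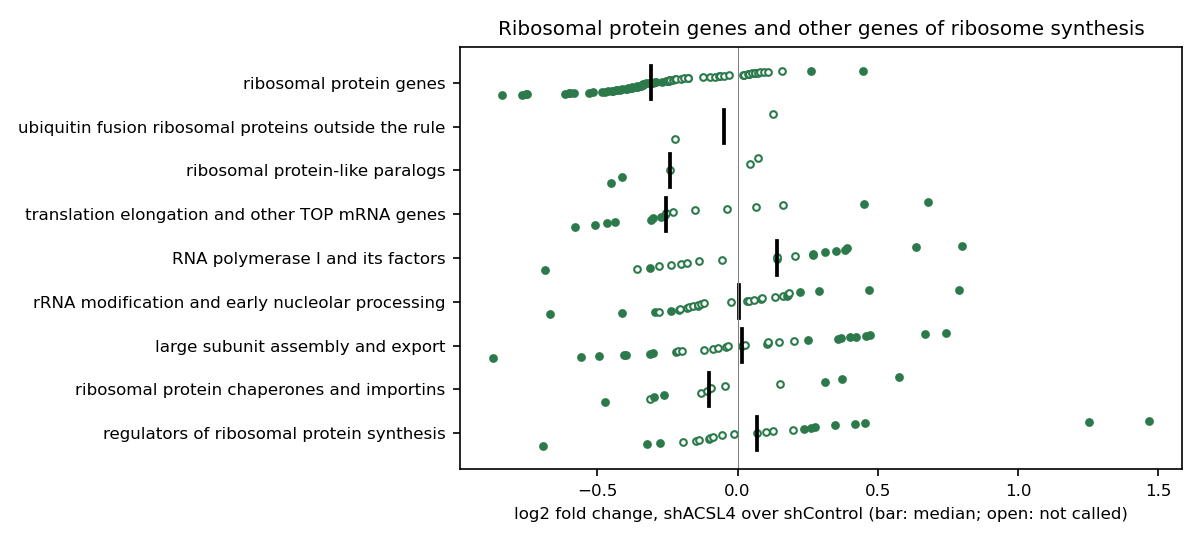
Log2 fold change of each measured gene of the ribosomal protein family and of 8 related lists (points, filled where called), with the median of each list (bar). The family and the genes with the same tract have medians of -0.31 and -0.26, RNA polymerase I has 0.14, and the assembly lists lie near 0, with DEPTOR and MXD4 farthest to the right among the regulators.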

How the data were processed

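Per the labels, Trizol was used for total RNA and an NEB method for libraries after depletion of ribosomal RNA. The submitters' processing notes list HISAT2, CASAVA and the GRCh38 (hg38) build with no versions. Which tool counted reads, and whether by strand, is not given in the sources used here. The deposited table gives raw counts per gene and FPKM values per library, the authors' group mean signal, log2 fold changes, p-values and adjusted p-values, per the file headers. All 58735 genes had GENCODE release 29 positions. Columns named NC were taken as shControl, the only other group.

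Genes kept by filterByExpr (15694) were scaled by TMM. The 3 libraries of each group were compared by the quasi-likelihood test of edgeR 4.0.16 in R 4.3.3, with no covariates (alternatives with limma 3.58.1), and Benjamini-Hochberg adjustment over all genes tested; genes were called at an adjusted p under 0.05. CPM use the scaled sizes. The steps were tested on simulated data. Members and lists were chosen with earlier results of these data known. Named were members with known special roles, the 6 largest falls and rises with groups that do not overlap, the 3 highest and lowest by FPKM, and the largest changes per list, some of which are not reported here; other names (among them RPL4, RPL12, RPS25, RPS26, RACK1 and TSC1) were chosen after their values were seen. Representative transcripts were the APPRIS principal, then CCDS, then shortest coding ones of GENCODE. Promoter entries are from RefSeq. Alternatives included DESeq2 1.42.0, limma-voom, limma-trend on log2(FPKM + 1), other scalings and filters, leaving out libraries, and 4 added after seeing the data: leaving out 2 libraries together, and values relative to neighbouring genes, GC and length trends.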

Additional observations from a re-analysis of the deposited data

How the results depend on the processing

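The main values were 44 members lower, 2 higher, and medians of -0.32 for the large and -0.26 for the small subunit. With library size alone 21 were lower and the large subunit median was -0.20. Against a fold of 1.2, 13 were lower and 0 higher. Leaving out 1 library at a time gave 22 to 49 lower and 1 to 2 higher. The higher count was 1 with limma-trend on log2(FPKM + 1) and relative to the GC trend, and 0 relative to neighbouring genes. Values relative to neighbours or a trend keep the standard error of the main fit. Their adjusted p-values and calls leave out the uncertainty of that baseline. Both medians stayed below 0 in all 21 alternatives. The 22 settings counted in this report are the main fit and these 21, without the test against a fold of 1.2. Over the 22, 20 members were called lower each time, 19 were never called and none was called higher each time. The sign turned for RPL22 (0.042), RPS19 (-0.28, adjusted p = 0.0267), RPL13A (-0.16), RPS15 (-0.056), RPL8 (-0.20), RPS21 (-0.15) and RPS28 (-0.011) relative to neighbouring genes. With 1 library left out, RPL10 ranged from -0.015 (no shACSL4 replicate 3) to 0.16, RPS19 from -0.054 (no shACSL4 replicate 3; -0.0077 with no shControl replicate 3) to 0.097, RPS21 from -0.19 (no shACSL4 replicate 3) to 0.15, RPS28 from -0.016 (no shACSL4 replicate 3) to 0.29, and RPS2 from -0.14 to 0.063 (no shControl replicate 2). RPS19 was at -0.0029 relative to the GC trend. RPS2 was at 0.074 with library size alone, 0.056 without shControl replicate 2 and shACSL4 replicate 3 together (RPS21 -0.099), and 0.010 relative to the length trend; RPS24 was at 0.058 with library size alone and 0.024 relative to the length trend. The cause was not tested. With the replicate number as a block 46 were lower and 2 higher. The numbers gave no sign of pairing: deviations from the group means correlated by 0.21, -0.058 and 0.035 in the same-numbered pairs, and shControl replicate 2 correlated more with shACSL4 replicate 3 (0.18). Precision of RPS10 and RPL17 is limited by mean counts of 60.2 and 90.5.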

Other observations

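Of the 77 genes, 28 hold at least 1 small nucleolar RNA (snoRNA) gene on the same strand, 60 in all. These 28 had a median log2 fold change of -0.34, with 20 lower and none higher, and the 49 others a median of -0.25, with 24 lower and 2 higher; the difference was not tested. Of the 60 snoRNA genes 13 had any count and 3 passed the filter.

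Among the promoter entries, the letters CCGGAAG, which match ETS-family factors, were found on either strand in 35.5% of the 62 members with an entry and 12.2% of all 27305 genes, and AAGATGGC, which matches YY1, in 9.68% and 3.52%. TATAAA was found in 8.06% of the members and 14% of all genes. GGGCGG was found in 58.1% and 48.3%. These are matches of letters in 300 bases, not sites.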
